A study of Mus musculus with 6 samples.

Results

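Toll-like receptors are membrane proteins with which phagocytes recognise microbial molecules, and CD14 is a co-receptor that hands lipopolysaccharide to one of them. The 10 genes described here are Tlr1, Tlr2, Tlr3, Tlr4, Tlr6, Tlr7, Tlr8, Tlr9, Tlr13 and Cd14. They were taken by name: every non-control probe whose gene name on the array was one of them was used, which gave 21 of 56605 probes. The scanner software flags each spot that is well above background. A probe was tested where some cell fraction had this flag on both of its arrays, which held for 14 of the 21 probes and covered 8 of the 10 genes. Tlr1 and Tlr6 had no such probe and are given as values without a test. Over the whole array 27867 probes passed the same filter and represented 20817 genes.

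The study set dendritic cell subsets beside macrophage subsets of the mouth: 3 fractions of mononuclear phagocytes were sorted from BALB/c sublingual mucosa. BALB/c is an inbred mouse strain. The mucosa of all the mice was painted 2 times with FITC, a fluorescent dye that sensitises on contact, so there is no unpainted group. Per the labels' protocols the tissue was the dorsal site of the tongue, digested for 30 min with collagenase and DNase. Fr1 was sorted as CD11c+CD206-. Fr2 was CD11c-CD206- and positive for the macrophage antigen ADGRE1, which the labels give under the name of its antibody. Fr3 was positive for the same antigen and CD206hi. CD11c is the integrin chain encoded by Itgax and is much used to sort dendritic cells. CD206 is the mannose receptor of tissue macrophages, encoded by Mrc1. Each fraction had 2 arrays, from independent experiments according to the series design. The ages of the mice and the number pooled in a sort are not given in the sources used here, and p-values measure only the spread between these 2 arrays a fraction.

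Levels are log2 of the processed intensity minus the array's 75th percentile, and they compare 1 probe across arrays, not one probe with another. A called gene is one with a limma p under 0.05 after Benjamini-Hochberg adjustment over all 20817 genes. Between 44.6% and 52.4% of the spots of an array were well above background and 0 spots were saturated. Replicate arrays correlated with r from 0.796 in Fr3 to 0.898 in Fr2 (Pearson, across genes; genes are no independent replicates). Slide 1 held all arrays of Fr1 and Fr3, in one scan, while slide 2 held both arrays of Fr2, so what sets Fr2 apart and what sets its slide apart cannot be told apart. The sort markers followed the gates only in part. Mrc1 read 3.78 and 2.67 in Fr3 and 0.64 and 0.33 in Fr2, and on neither Fr1 array was it above background. Itgax read 2.71 and 2.35 in Fr1, 2.77 and 1.20 in the CD11c- fraction Fr2, and 0.20 and 0.95 in Fr3. Adgre1 read 4.49 and 4.39 in Fr1, 5.94 and 5.97 in Fr2 and 5.46 and 5.32 in Fr3.

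Toll-like receptors fall into groups by where they sit and what they bind. TLR2, which pairs with TLR1 or TLR6 to bind bacterial lipopeptides, and TLR4, which binds lipopolysaccharide together with the protein MD-2 and with help from CD14, work mainly at the cell surface. TLR3, TLR7, TLR8, TLR9 and TLR13 sit in endosomes and bind nucleic acids: double-stranded RNA, single-stranded RNA, DNA with unmethylated CpG sites, and bacterial ribosomal RNA. Engaged receptors recruit the adaptors MyD88 or TRIF and switch on NF-κB and interferon regulatory factors. In mucosal tissue these receptors let dendritic cells and macrophages respond to the resident flora.

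The results turn on which probe of a gene is read, so probes of 5 genes whose own probes differed are shown first. Each array probe is a 60-base DNA; 3 are printed whole and the others by their first 30 bases, 5′ to 3′ as the files give them, with T in capitals because the arrays differed by probe T content. Places are on the mouse build mm9, as in the files; no genome of that build was used here, so exon and UTR are not stated.
Tlr13 probe A_66_P125902 (chrX:103354821-103354880): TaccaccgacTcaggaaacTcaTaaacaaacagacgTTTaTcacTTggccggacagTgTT
Tlr13 probe A_55_P2048279 (chrX:103355773-103355832), first 30 bases: TgagTaacccTTcaccTaTgTTcTTgTaag
Tlr8 probe A_66_P131283 (chrX:163679328-163679387), first 30 bases: TTgagacTaTaacTacaTcaTTcccTcTTT
Tlr8 probe A_55_P1996271 (chrX:163680628-163680685), first 30 bases: TgaTgggaagTcacgacTcTgccaTcaTaa
Tlr8 probe A_51_P176893 (chrX:163680715-163680774): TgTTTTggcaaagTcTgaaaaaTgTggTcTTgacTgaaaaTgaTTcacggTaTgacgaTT
Tlr7 probe A_55_P2050932 (chrX:163742863-163742922), first 30 bases: TcTcTcTcTcTgaTacTgaacTgTaccaga
Tlr7 probe A_55_P2129047 (chrX:163743146-163743205), first 30 bases: caTaaaTgaaggTcTgaaTTTTTccTaaca
Tlr4 probe A_55_P2603039 (chr4:66500344-66500403): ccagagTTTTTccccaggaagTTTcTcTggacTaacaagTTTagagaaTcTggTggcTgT
Tlr4 probe A_51_P300806 (chr4:66503724-66503782), first 30 bases: TgTgaTagggcTTTaaaTagTTgagcTaaT
Tlr4 probe A_55_P2714823 (chr4:66591199-66591258), first 30 bases: TcTTccaTagTTTgTgcTTcaTgTcccTgc
Tlr3 probe A_55_P2921249 (chr8:46495198-46495257), first 30 bases: aaaTcagaaTgTacTTggcTTTggaggTTg
Tlr3 probe A_52_P85174 (chr8:46481729-46481788), first 30 bases: TaaTgcTcaTTTTTgagacgTTTaTagaaT
Over their full length these probes hold from 21.7% T, in the first Tlr13 probe, to 41.7% T, in the last Tlr4 probe. The last Tlr4 probe also stands alone in place: it starts 87417 bases beyond the nearest of the other Tlr4 probes, and the files assign it to an Ensembl transcript only.

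No member gene was called in any of the 3 comparisons, so the orders given here describe the array means. Each gene is read here by its brightest probe. Between fractions, the largest ratio of means was 1.63-fold for Tlr2 and 1.72-fold for Cd14. Tlr8 and Tlr7 were brightest in Fr3, the CD206hi macrophages, and Tlr13 was brightest in Fr2. Other tested probes of Tlr4, Tlr7, Tlr8, Tlr13 and Cd14 gave another order of the 3 fractions. The fraction means of the other tested Tlr8 probe lay only between −1.71 and −1.55. Tlr3 was dimmest in Fr3, and the 3 fraction means of Tlr9 lay between 2.84 and 2.89. In sorted bulk samples fewer cells of a type and less RNA per cell cannot be told apart, which holds for every difference below.

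**Figure D1:**
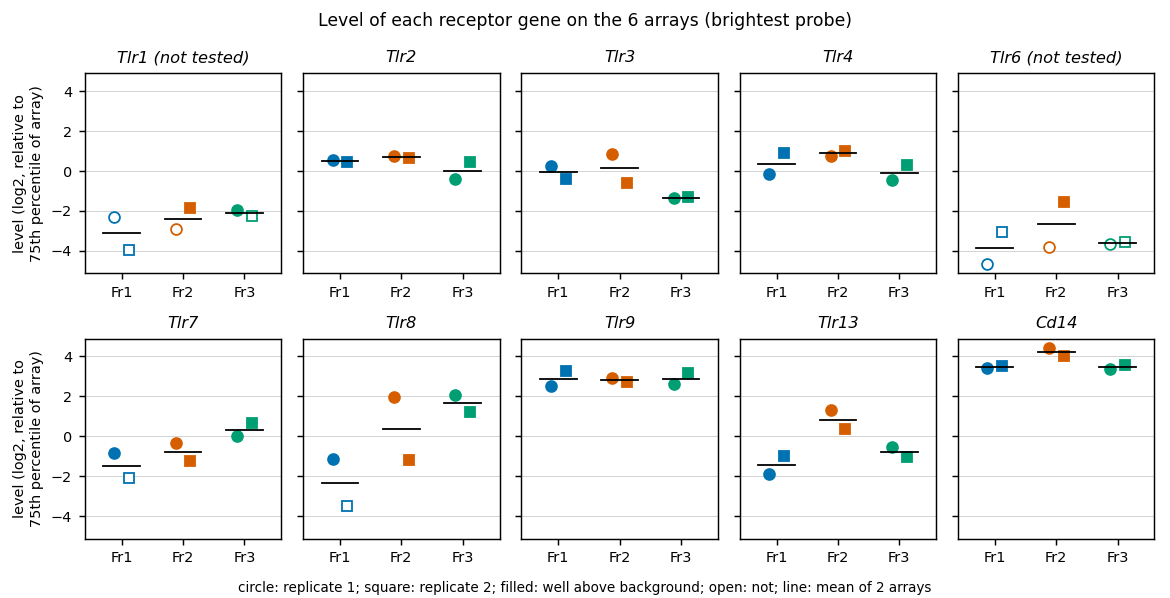
Level of each gene's brightest probe (log2 on the scale of the array's 75th percentile, y axis) on the 2 arrays of each fraction (x axis); circles are replicate 1 and squares replicate 2, filled where the spot was well above background, and the line is the mean of the 2 arrays. The Fr1 and Fr3 points of Tlr7 and Tlr8 do not overlap, the Fr2 points of Tlr13 lie above all its others, and the points of Tlr9 lie between 2.53 and 3.25.

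Tlr2, the shared partner of the lipopeptide-binding pairs (chr3:83640344-83640403), was read by a single probe and was above background on all 6 arrays. It read 0.56 and 0.46 in Fr1, 0.77 and 0.67 in Fr2 and −0.40 and 0.43 in Fr3. Fr2 lay highest and Fr3 lowest, and no arrays of different fractions overlapped, though the 2 Fr3 arrays were further apart than any of the fractions' means. The widest difference was Fr2 minus Fr3, at 0.71 ± 0.56 (log2, SE; 95% interval −0.63 to 2.04, limma adjusted p = 0.661). Fr1 minus Fr3 was 0.49 ± 0.56 (limma adjusted p = 0.840). Without the second Fr3 array Fr1 minus Fr3 was 0.91 and Fr2 minus Fr3 was 1.12. Without the first they were 0.08 and 0.29.

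Tlr1 and Tlr6, the partners of Tlr2, lie near each other on chromosome 5, and their probes were dim. The better Tlr1 probe (chr5:65316115-65316174) was well above background on 2 arrays, the second of Fr2 at −1.86 and the first of Fr3 at −1.97. On the other 4 arrays it read from −3.98 to −2.24. The other Tlr1 probe was above background on 0 of 6 arrays. The single Tlr6 probe (chr5:65344365-65344424) was above background on 1 array, the second of Fr2, at −1.53, and read from −4.68 to −3.05 on the others. So no fraction had both arrays above background for either partner, and no difference was tested.

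Tlr4, the lipopolysaccharide receptor, was read by 3 probes that passed the filter. Its brightest, the distant one, read −0.15 and 0.89 in Fr1, 0.77 and 1.02 in Fr2 and −0.46 and 0.29 in Fr3. Fr2 lay above Fr3 without overlap, and Fr1 overlapped both. By this probe Fr2 minus Fr3 was 0.98 ± 0.62 (95% interval −0.51 to 2.47, limma adjusted p = 0.624) and Fr1 minus Fr2 was −0.53 ± 0.62 (limma adjusted p = 0.826). Without the first Fr3 array Fr2 minus Fr3 was 0.61.

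The 2 other Tlr4 probes lie 3380 bases apart on 1 transcript and gave a larger gap between Fr1 and Fr2. Probe A_55_P2603039 read −1.88 and −3.78 in Fr1, −0.17 and −0.37 in Fr2 and −0.97 and −3.13 in Fr3. Probe A_51_P300806 read −0.48 and −2.34 in Fr1, 0.74 and −0.29 in Fr2 and 0.49 and −0.79 in Fr3. On both, the second Fr1 array was not above background. With every probe fitted as a feature of its own, Fr1 minus Fr2 was −2.56 ± 0.95 for the first (limma, over probes, adjusted p = 0.455) and −1.64 ± 0.86 for the second (limma adjusted p = 0.569). All 3 probes placed Fr2 above the other fractions on average. For Fr1 minus Fr3 they split: the distant probe gave 0.46 and the others −0.78 and −1.26.

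Cd14, the lipopolysaccharide co-receptor (brightest probe chr18:36884727-36884786), was above background on all arrays. It read 3.41 and 3.50 in Fr1, 4.44 and 4.03 in Fr2 and 3.36 and 3.56 in Fr3. Both Fr2 arrays lay above the 4 others, while Fr1 and Fr3 overlapped. Fr2 was 1.72-fold Fr1 and 1.71-fold Fr3, differences of 0.78 ± 0.53 each on the log2 scale (limma adjusted p = 0.659 and 0.634). Fr1 minus Fr3 was 0.00 ± 0.53, with a 95% interval from −1.26 to 1.25. The other Cd14 probe (chr18:36884969-36885028) read 1.15 and 2.28 in Fr1, 1.42 and 1.15 in Fr2 and 1.41 and 2.65 in Fr3. It placed Fr2 lowest on average, with all 3 fractions overlapping, so the order of Cd14 over the fractions depended on the probe.

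Of the endosomal receptors, Tlr8, whose human form senses breakdown products of single-stranded RNA, showed the widest spread of the 8 tested genes. Its brightest probe read −1.15 and −3.51 in Fr1, 1.95 and −1.18 in Fr2 and 2.08 and 1.24 in Fr3. Both Fr3 arrays lay above both Fr1 arrays, and the 2 Fr2 arrays spanned most of the gap. Fr1 minus Fr3 was −3.99 ± 1.21, a 15.9-fold higher level in Fr3 (95% interval −6.88 to −1.10 on the log2 scale, limma adjusted p = 0.431). The second Fr1 array was not above background there, and without it the difference was −2.81. With the normexp background correction, which raises dim signals, it was −1.34. Fr1 minus Fr2 was −2.71 ± 1.21 (limma adjusted p = 0.526). Without the first Fr2 array it shrank to −1.15, and without the first Fr1 array it was −3.90.

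The other tested Tlr8 probe did not show that gap. Probe A_55_P1996271 was above background on all 6 arrays and read only from −1.88 to −1.22. By it Fr1 minus Fr3 was −0.13 ± 0.57 (95% interval −1.49 to 1.23). That interval does not reach the −3.99 of the brightest probe, but it overlaps that probe's own interval of −6.88 to −1.10. Probe A_51_P176893 was not above background on any array. The remaining Tlr8 probe, A_55_P2718309, was above background only on the first Fr3 array and was not tested. It read −4.57 and −4.31 in Fr1, −5.06 and −5.08 in Fr2 and −2.65 and −2.96 in Fr3, so its Fr3 arrays also lay above its Fr1 arrays. By their coordinates the brightest probe is the one nearest the 3′ end of the gene.

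Tlr7, the receptor through which plasmacytoid dendritic cells sense single-stranded RNA, lies beside Tlr8 on the X chromosome. Its brightest probe read −0.84 and −2.10 in Fr1, −0.31 and −1.25 in Fr2 and 0.02 and 0.65 in Fr3. Fr3 lay above all arrays of the other fractions, which overlapped each other. Fr1 minus Fr3 was −1.80 ± 0.69 (3.49-fold, 95% interval −3.45 to −0.16, limma adjusted p = 0.573). Fr2 minus Fr3 was −1.11 ± 0.69 (limma adjusted p = 0.618). The second Fr1 array was not above background on this probe. Fr1 minus Fr3 was −1.17 without that array and −2.44 without the first Fr1 array. Fr2 minus Fr3 was −1.58 without the first Fr2 array and −0.65 without the second. With the normexp background correction Fr1 minus Fr3 was −0.48.

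A second Tlr7 probe moved Fr3 from brightest to dimmest, while Fr1 minus Fr2 kept its sign, at −0.58 against −0.69. Probe A_55_P2129047, 283 bases nearer the start of the same transcript, read −2.08 and −0.76 in Fr1, −2.17 and 0.50 in Fr2 and −3.12 and −2.14 in Fr3. It was not above background on either Fr3 array, and Fr3 was the dimmest fraction on average by this probe. Fr1 was at least 2.14-fold and Fr2 at least 3.20-fold Fr3 (limma adjusted p = 0.733 and 0.586), though the Fr2 and Fr3 arrays overlapped. An "at least" fold sets the brighter mean against a floor for the dim fraction: on each array, the probe's signal or the dimmest signal flagged above background, whichever is higher. The third Tlr7 probe was above background on 1 array each of Fr2 and Fr3 and did not pass the filter.

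**Figure D2:**
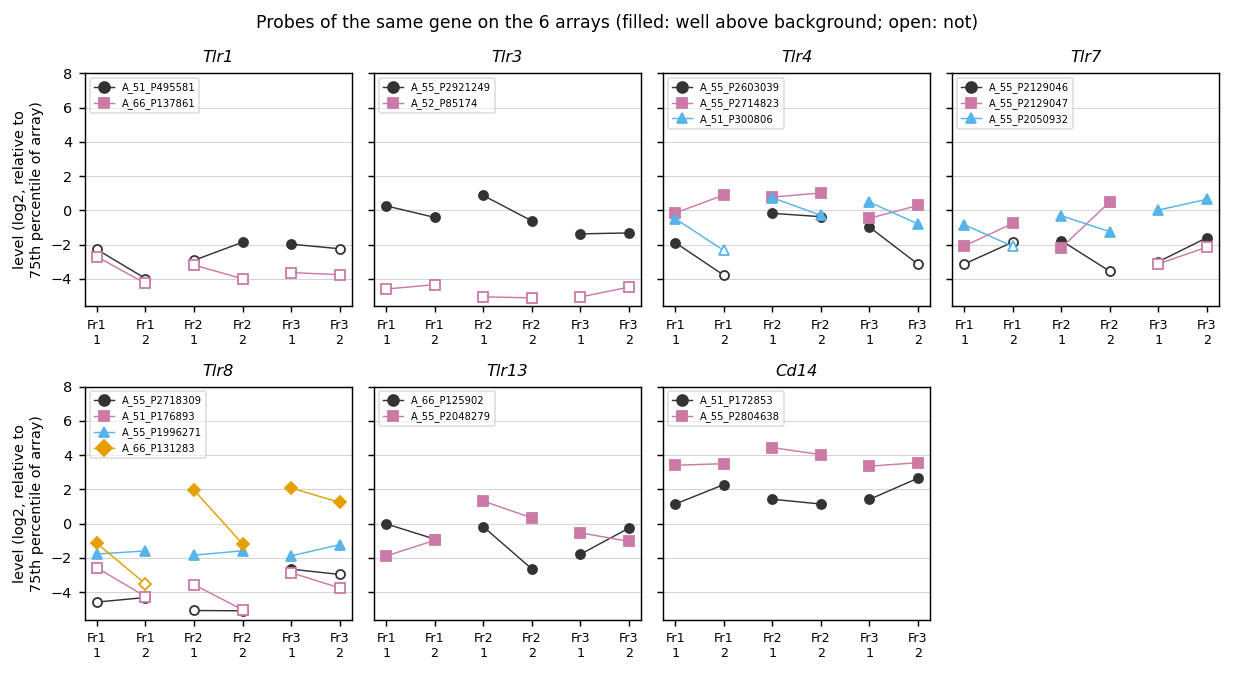
Level of every probe (log2 on the scale of the array's 75th percentile, y axis) of the 7 member genes with more than 1 probe, on the 6 arrays (x axis, fraction and replicate); filled points were well above background and open points were not. The tested probes differ in sign for Tlr13 in all 3 comparisons, for Tlr7 in both with Fr3 and for Cd14 in both with Fr2, while the 3 Tlr4 probes all have their highest mean in Fr2.

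Tlr13, the mouse receptor for bacterial ribosomal RNA, had the smallest F-test p over the 3 fractions among the members (limma adjusted p = 0.424). Its brightest probe read −1.89 and −0.97 in Fr1, 1.32 and 0.34 in Fr2 and −0.53 and −1.03 in Fr3. Both Fr2 arrays lay above all others, and Fr1 and Fr3 overlapped. Fr1 minus Fr2 was −2.26 ± 0.64, a 4.79-fold higher level in Fr2 (95% interval −3.79 to −0.73, limma adjusted p = 0.385). Fr2 minus Fr3 was 1.61 ± 0.64, or 3.06-fold (limma adjusted p = 0.543). With the normexp background correction the first of these was −0.68 and the second 0.60.

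The other Tlr13 probe, 952 bases nearer the start of the same transcript, was also above background on all arrays. It read −0.01 and −0.90 in Fr1, −0.17 and −2.63 in Fr2 and −1.79 and −0.27 in Fr3. The 2 Fr2 arrays held both a high and the lowest value, and all fractions overlapped. Its Fr1 minus Fr2 was 0.95 ± 0.98 (limma adjusted p = 0.783), opposite in sign to the brightest probe.

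Tlr3, the receptor for double-stranded RNA, was above background on all arrays by 1 of its 2 probes. That probe read 0.26 and −0.41 in Fr1, 0.87 and −0.61 in Fr2 and −1.37 and −1.32 in Fr3. Both Fr3 arrays lay below the 4 others, and Fr1 and Fr2 overlapped. Fr1 minus Fr3 was 1.27 ± 0.68 (95% interval −0.35 to 2.89, limma adjusted p = 0.625) and Fr2 minus Fr3 was 1.47 ± 0.68 (95% interval −0.14 to 3.09, limma adjusted p = 0.588). Without the first Fr2 array the latter was 0.73, and without the second it was 2.22. Its other probe, with 40% T, was not above background on any array, and read from −5.10 to −4.34. The 2 probes lie 13469 bases apart on the genome and 3383 bases apart along the transcript, with the silent one nearer its end.

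Tlr9, the receptor for CpG DNA (chr9:106128979-106129038), had 1 probe, above background everywhere. It read 2.53 and 3.25 in Fr1, 2.94 and 2.74 in Fr2 and 2.61 and 3.16 in Fr3. The fractions overlapped completely, with means from 2.84 to 2.89. The widest of the 3 differences, Fr1 minus Fr2, was 0.05 ± 0.57 with a 95% interval from −1.31 to 1.41, so differences within that interval are not excluded. Far larger ones, such as the −3.99 of Tlr8 for Fr1 minus Fr3, were not called on these arrays. With another background correction the sign of the small Tlr9 value turned, to −0.02.

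Counted over the members, 0 of 8 tested genes were called in each comparison. Over all genes 0.0048% were called between Fr1 and Fr3, 0.0% between Fr1 and Fr2 and 0.0048% between Fr2 and Fr3, so almost nothing on these arrays passed. Between Fr1 and Fr3, 2 of 8 members, Tlr7 and Tlr8, had an unadjusted p under 0.05, both higher in Fr3. Over all genes the share was 8.12%, and 5.34% for those higher in Fr3. Between Fr1 and Fr2 it was 1 of 8, Tlr13, higher in Fr2, against 9.79% of all genes and 6.46% higher in Fr2. Between Fr2 and Fr3 it was again Tlr13 alone, higher in Fr2, against 8.92% and 4.83%. The limma adjusted p of the members was at or above 0.385 throughout.

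The counts of members whose arrays did not overlap are read against the same share of all genes. Between Fr1 and Fr3 they were 4 of 8 (35.7% of all genes): Tlr2 and Tlr3 higher in Fr1 (13.7% of all genes), Tlr7 and Tlr8 higher in Fr3 (21.9%). Between Fr1 and Fr2 they were 3 of 8 (44.8% of all genes), Tlr2, Tlr13 and Cd14, all higher in Fr2 (22.3%). Between Fr2 and Fr3 they were 6 of 8 (42.1% of all genes). Of these, 5 were higher in Fr2, Tlr2, Tlr3, Tlr4, Tlr13 and Cd14 (19.5% of all genes), and Tlr7 was higher in Fr3 (22.7% of all genes). The comparisons share arrays, so their counts are not separate evidence. The median difference of the 8 members was 0.00 for Fr1 minus Fr3, −0.61 for Fr1 minus Fr2 and 0.74 for Fr2 minus Fr3. Over all genes these medians were −0.05, 0.03 and −0.08.

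Probes of one gene often disagreed, among the receptors and over the array. Of the 5 members with more than 1 probe that passed the filter, 3 had probes of opposite sign in each of the comparisons. Over the 5123 genes with more than 1 such probe the share was 50.8% for Fr1 minus Fr3, 50.2% for Fr1 minus Fr2 and 49.3% for Fr2 minus Fr3. The 2 Tlr13 probes disagreed in all 3 comparisons. Tlr7 disagreed in both comparisons with Fr3, Cd14 in both with Fr2, Tlr8 in Fr1 against Fr2 and Tlr4 in Fr1 against Fr3.

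**Figure D3:**
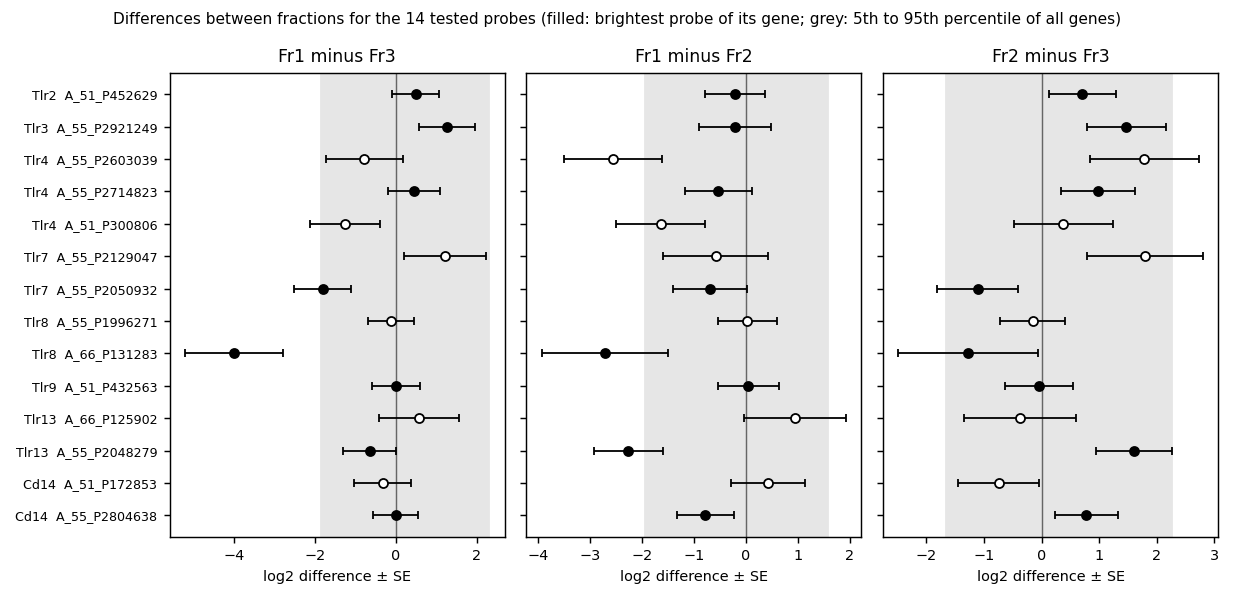
Log2 difference between 2 fractions with its SE (x axis) for each of the 14 tested probes of the member genes (y axis), filled for the brightest probe of a gene and open for its others; the grey band holds the 5th to 95th percentile of all 20817 genes. The brightest Tlr8 probe in Fr1 minus Fr3, at −3.99, lies outside the band of −1.86 to 2.31, and its other tested probe, at −0.13, lies near 0.

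Part of the spread between replicate arrays went with the T content of the probe. Over all probes that passed the filter, the second Fr3 array was above the first by a median of 0.68 where T was at most 20% and below it by 1.71 where T exceeded 40%. The same medians ran from 0.48 to −0.93 in Fr1 and from 0.18 to 0.04 in Fr2. The member probes followed this only in part. Tlr13 probe A_66_P125902, the poorest in T of those printed, was 1.52 higher on the second Fr3 array. Tlr4 probe A_55_P2714823, the richest at 41.7% T, was 0.75 higher there, against the median of −1.71 for such probes. Tlr4 probe A_55_P2603039 was 2.17 lower with 31.7% T, and the median of probes with over 30% and up to 35% T was 0.12.

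Between fractions, the median of Fr1 minus Fr3 ran from −0.17 for probes of at most 20% T to 1.00 for those over 40%. The 0.46 of the brightest Tlr4 probe, which is among the latter, lay below their median. Without probes of over 30% T, Cd14 and Tlr8 are read by their other probe, and 3 of their 6 differences changed sign. Cd14 then gave 0.43 for Fr1 minus Fr2 and −0.75 for Fr2 minus Fr3, and Tlr8 gave 0.03 for Fr1 minus Fr2. The other differences kept their sign, with −0.32 for Cd14 in Fr1 minus Fr3, and −0.13 and −0.16 for Tlr8 in Fr1 minus Fr3 and Fr2 minus Fr3.

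**Figure D4:**
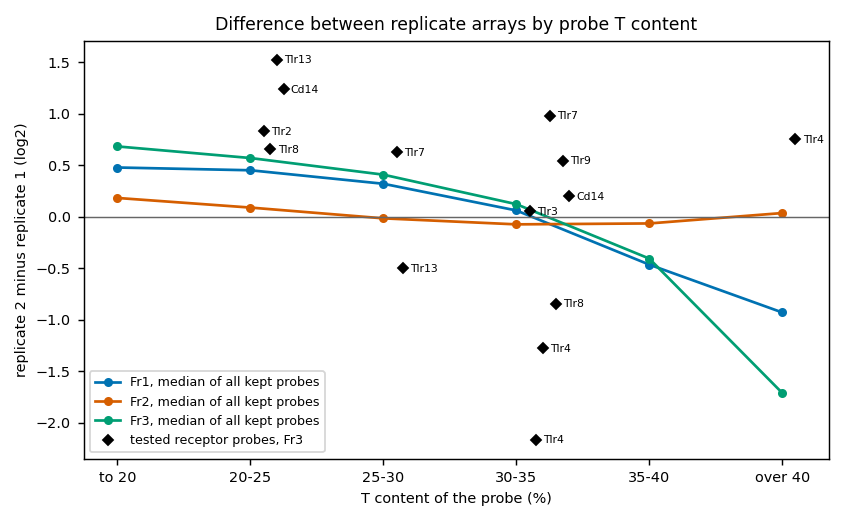
Median difference between replicate 2 and replicate 1 (log2, y axis) of all probes that passed the filter, by the T content of the probe (x axis), for each fraction, with the tested member probes on the Fr3 arrays as diamonds. The Fr1 and Fr3 lines fall from left to right, to −0.93 and −1.71, and the Fr2 line stays between −0.07 and 0.18.

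Markers of other cells moved with the fractions as well. The mean level of 11 tested neutrophil markers was 4.04 and 4.16 in Fr2, against 1.15 and 1.21 in Fr1 and 0.64 and 0.45 in Fr3. The mean of 8 monocyte markers was 3.20 and 3.59 in Fr2 and from 0.37 to 0.85 in the others. That of 8 eosinophil markers was 2.53 and 3.41 in Fr2 and from −1.19 to 0.75 elsewhere. Tlr2, the tested Tlr3 probe and all 3 tested Tlr4 probes also had their highest mean in Fr2. So did Tlr7 probe A_55_P2129047, the brightest Tlr13 probe and the brighter Cd14 probe. The part of these lists in the values of these probes was not tested. In Fr1, Ltf (neutrophil) and Chil3 and Vcan (monocyte) were not above background, and in Fr3 neither Elane nor Prg2 was.

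The means of the macrophage and dendritic cell lists ran with the gates. For the macrophage list this was partly fixed by the sort, since it holds Mrc1 and Adgre1, the genes of sort antigens. The mean of 11 macrophage markers was 3.84 and 3.46 in Fr3, 2.69 and 1.30 in Fr2 and 0.82 and 0.92 in Fr1, where Mrc1 and Lyve1 were not above background. The brightest probes of Tlr7 and Tlr8 had the same order of fraction means. The mean of 10 conventional dendritic cell markers was −0.45 and −0.79 in Fr1 and from −2.96 to −1.70 in the others. That of 4 B and plasma cell markers was 1.56 and 1.35 in Fr1 and from 0.22 to 1.06 in the others. Yet only 2 of these 4 were higher in Fr1 than in Fr3, Cd79b by 1.12 and Pax5 by 3.15, and 2 were lower. Pax5 read 1.36 and −3.72 on the Fr3 arrays. The mean of 8 plasmacytoid dendritic cell markers was 1.44 and 0.95 in Fr1 and from −1.07 to −0.27 in the other fractions, where Ccr9 and Spib were not above background. Ccr9 read 1.32 and 1.13 in Fr1 and Spib 2.72 and 0.37, while Fr1 minus Fr3 was 0.11 for Siglech, −0.43 for Tcf4 and −0.56 for Ly6d. Plasmacytoid cells are known for Tlr9 and Tlr7. The fraction means of Tlr9 differed by 0.05 at most, the brightest Tlr7 probe was lowest in Fr1, and Tlr7 probe A_55_P2129047 was at least 2.14-fold higher in Fr1 than in Fr3. The part of these lists in the members' values was not tested.

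The rest of the pathway was read from 7 lists of 74 genes, 66 of which were tested. None was called in any comparison (0 of 66). An unadjusted p under 0.05 was found for 11 of 66 between Fr1 and Fr3 (8.12% of all genes), 9 between Fr1 and Fr2 (9.79% of all genes) and 7 between Fr2 and Fr3 (8.92% of all genes). Tlr5, the flagellin receptor, and the adaptor Myd88 were among the 8 listed genes without a probe that passed the filter. The others were Lbp, Ticam2, Sarm1, Tab1, Rnf216 and Il23a.

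Of the receptors outside the member set, Tlr12, which binds a protein of protozoan parasites, gave the largest values. Its single probe, A_66_P114333 (chr4:128292690-128292749, 28.3% T), read 2.51 and 2.45 in Fr1, 2.85 and 0.51 in Fr2 and −5.20 and −4.62 in Fr3. Neither Fr3 array was above background, and every other array was. Fr1 was at least 33.5-fold and Fr2 at least 19.2-fold Fr3 (limma adjusted p = 0.138 and 0.0994). Without probes of over 30% T both differences were called (limma adjusted p = 0.0238 and 0.0229). With a trended robust variance the limma adjusted p was 0.0529 and 0.0616, and the F-test over the 3 fractions was called (limma adjusted p = 0.0497). Without the first Fr3 array, which leaves Fr3 a single array, the differences were 7.09 and 6.29. With the normexp background correction Fr1 minus Fr3 was 2.22 on the log2 scale, against 7.39 with the processed signal. Tlr11, the partner of Tlr12, was above background on both arrays of Fr2, at −1.01 and −1.53, and on 1 array each of Fr1 and Fr3. It read −2.10 and −4.36 in Fr1 and −4.66 and −0.70 in Fr3, so the second Fr3 array lay above both Fr2 arrays. Cd180, a relative of the receptors on B cells and myeloid cells, read from 1.20 to 2.55 with all fractions overlapping.

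Ly96, which encodes the co-receptor MD-2, read 10.96 and 11.16 in Fr1, 10.64 and 10.79 in Fr2 and 10.63 and 11.31 in Fr3. Fr1 lay above Fr2 without overlap, at 0.34 ± 0.55 (limma adjusted p = 0.878), and 44.8% of all genes did not overlap between these fractions. Fr1 minus Fr3 was 0.09 ± 0.55 (limma adjusted p = 0.986). Ly86, which encodes the partner of CD180, read from 2.29 to 4.39, with all fractions overlapping, and Fr2 minus Fr3 was 0.97 ± 0.79 (limma adjusted p = 0.668). Cd36, a lipid receptor that serves TLR2 and TLR6, read from −1.48 to 0.09, and overlapped likewise. The median difference of these 3 tested genes was 0.09 for Fr1 minus Fr3, −0.41 for Fr1 minus Fr2 and 0.04 for Fr2 minus Fr3.

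Endosomal receptors must be folded, carried from the endoplasmic reticulum and cleaved by lysosomal proteases before they signal. All 12 genes listed for these steps were tested. On average 9 of them were lower in Fr1 than in Fr3 and 3 higher, with a median of −0.56 for Fr1 minus Fr3. Over all genes 47.4% were higher in Fr1, and the median was −0.05. An unadjusted p under 0.05 was found for 1 of the 12, against 8.12% of all genes. Ctsb, which encodes the protease cathepsin B, read 4.57 and 3.96 in Fr1, 5.32 and 3.93 in Fr2 and 6.40 and 5.69 in Fr3. Both Fr3 arrays lay above the others, and Fr1 minus Fr3 was −1.78 ± 0.69 (limma adjusted p = 0.575). Ctsk, which encodes cathepsin K, was above background in Fr2 only, at −1.89 and −1.85. Unc93b1, the chaperone that carries the endosomal receptors, read from −1.95 to 0.14, and its fractions overlapped.

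Among 3 tested adaptors of 6 listed, Ticam1, which encodes TRIF, was above background only in Fr3, at −2.42 and −1.21. Pik3ap1, which links the receptors to PI3 kinase, read 0.09 and 1.04 in Fr1, 0.39 and −0.30 in Fr2 and −0.90 and −0.44 in Fr3. Its Fr1 and Fr3 arrays did not overlap (1.24 ± 0.62, limma adjusted p = 0.625). Of 20 tested signalling genes, Irf8, a transcription factor of dendritic cells, read 1.33 and 0.57 in Fr1, −0.23 and −1.26 in Fr2 and −0.86 and −0.70 in Fr3. Both Fr1 arrays lay above the 4 others, and Fr1 minus Fr3 was 1.73 ± 0.62 (limma adjusted p = 0.535). Tab3, a partner of the kinase TAK1, was lowest in Fr1 at −0.62 and −0.50 and highest in Fr2 at 1.48 and 1.22.

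Of 10 tested inhibitors, Tollip, which restrains the receptors' kinases, was brightest in Fr3 at 2.83 and 3.71 and read from 1.23 to 2.55 elsewhere. Il1rl1, the IL-33 receptor, which can hold back the adaptors, stood out in Fr2 at 1.57 and 2.52 against −1.56 to −0.30 in the others (Fr1 minus Fr2 −3.30 ± 0.68, limma adjusted p = 0.309). Of 15 tested target cytokines and related genes, 7 had an unadjusted p under 0.05 between Fr1 and Fr3, 6 of them higher in Fr1, a direction and p that 2.78% of all genes had. The median of the list for Fr1 minus Fr3 was 1.68, against −0.05 over all genes. The mean of 8 T and NK cell markers was also highest in Fr1, at 0.57 and 0.96 against −1.38 to −0.62 elsewhere. Gzma was above background on both arrays of every fraction, and Gzmb on neither array of Fr2 or Fr3. Icos was above background on both arrays of Fr1 and Fr2 and on 1 of Fr3. Of the 8 markers, 7 were on average higher in Fr1 than in Fr3. An unadjusted p under 0.05 was found for 4 of the 8, all higher in Fr1 (2.78% of all genes). Fr1 minus Fr3 was 3.99 for Gzma, 3.14 for Il2rb and 2.19 for Icos, and Gzmb was at least 3.07-fold higher in Fr1. Yet the difference was only 0.83 for Ncr1, 0.31 for Cd3e and 0.15 for Lck, and −0.75 for Cd4. The part of that list in the cytokine values was not tested. Ifnb1, interferon beta, read −0.49 and −0.33 in Fr1 and was not above background in Fr2 or Fr3, so Fr1 was at least 5.79-fold Fr2 and at least 4.52-fold Fr3 (limma adjusted p = 0.267 and 0.144). Il12b, a subunit of interleukin-12, read 0.76 and 0.71 in Fr1 and −2.11 and −0.78 in Fr2, and was not above background in Fr3. Fr1 was at least 10.01-fold Fr3 (limma adjusted p = 0.144). Leaving out the first Fr3 array leaves Fr3 a single array. Fr1 minus Fr3 was then 4.21 for Ifnb1, 4.07 for Il12b, 7.09 for Tlr12, 3.94 for Traf6 and 4.74 for Ikbkg. For Traf6 and Ikbkg the array left out read 0.86 and 0.14, between the 2 Fr1 arrays, and the one kept −3.01 and −4.45. With both Fr3 arrays these 2 differences were 2.00 and 2.44.

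**Figure D5:**
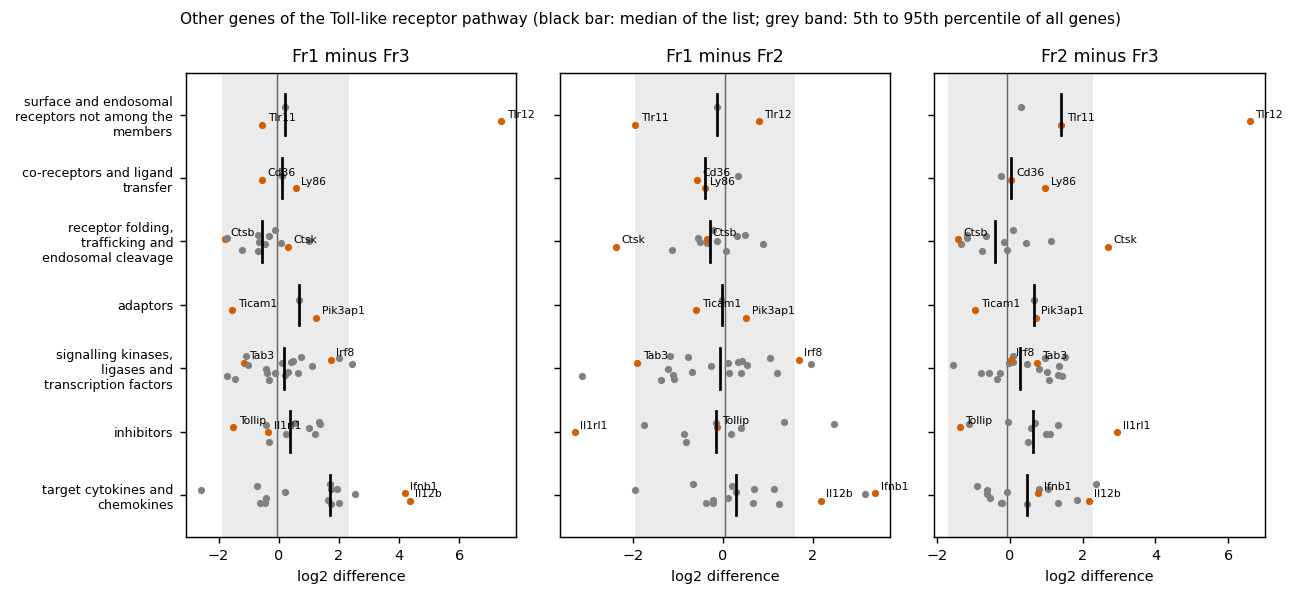
Log2 difference between 2 fractions (x axis) for the 66 tested pathway genes by list (y axis). The black bar is the list's median, and the grey band the 5th to 95th percentile of all genes. Orange points are the 2 genes of each list with the smallest F-test p. Tlr12 lies at 7.39 in Fr1 minus Fr3 and 6.59 in Fr2 minus Fr3, and the median of the target cytokines lies at 1.68 in Fr1 minus Fr3.

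The genes whose levels ran most like Tlr13 over the 6 arrays were Impa2, Nmi, Syf2, Trp53inp2 and Rp9. Likeness was the root mean square difference from the brightest Tlr13 probe after each gene was centred on its mean, among 13173 genes, and ran from 0.19 for Impa2 to 0.26 for Rp9 against a range of 3.21 for Tlr13 itself. The nearest to Cd14 were Sun2, Pot1a, Ankrd44, Ier3ip1 and Smchd1, at 0.10 to 0.11 against a range of 1.08. These are the closest of many genes over 6 arrays and carry no test.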

How the data were processed

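Gene expression was measured in 3 sorted fractions with 2 arrays each. The small amounts of RNA were amplified over the whole transcriptome and the cDNA labelled with Cy3, per the labels' protocols. The spot intensity values are those the authors' scanner software, Agilent Feature Extraction 11.5.1.1, wrote per the file headers, with background subtracted and surrogate values for dim spots. Coordinates are mm9, per the file headers. The authors' deposited log2 value table had column medians from −2.44 to −2.25 and a 75th percentile of 0 on every array. It correlated with the scanner values with r of at least 0.9999, which settled its scale, centring and direction, and it served as an alternative.

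From there, replicate spots were averaged per probe and levels taken as log2 of the signal minus the array's 75th percentile. A gene was represented by its brightest probe among those flagged above background on both arrays of some fraction. Control spots were left out, and 4 probes for an outlier flag. Names were brought up to date from RefSeq, by accession for 32994 probes, by symbol for 10224 and by synonym for 520; 12867 kept the file's name. Member probes were taken by the name in the files.

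Fractions were compared with limma 3.58.1 (R 4.3.3; Python 3.11.15 for reading) in a model of 3 group means over 6 arrays, with 3 residual and 3.70 prior degrees of freedom, two-sided, adjusted over 20817 genes; the steps were tested on simulated data. An exact permutation test of 2 arrays against 2 cannot go below p = 0.333 and was not used. The number of arrays limits the precision. Named genes were all members, the sort markers, the 2 genes with the smallest F-test p of each pathway list with any called gene, and the 5 nearest patterns to Tlr13, the receptor with the smallest F-test p, and to Cd14. Cd180, Ly96 and Unc93b1 were added for their roles after their values were seen. The members and lists were chosen with earlier results of these data known. Alternatives covered background correction, scaling, filter, probe choice, T content, variance model, replicate block and leaving out arrays; leaving out the distant Tlr4 probe was chosen after seeing the data.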

Additional observations from a re-analysis of the deposited data

How the results depend on the processing

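No member was called under any alternative run: the lowest limma adjusted p was 0.206 over 300 values and 0.230 over 144 with 1 array left out. Direction was kept in 289 and 132 of these. The 11 values that turned were small or came from another probe. For Fr1 minus Fr3, Tlr9 was −0.084 with normexp, Cd14 was 0.22 with quantile normalization and 0.16 with the 75th percentile of detected probes, and Tlr4 was −0.53 as the mean of its probes and −1.26 without the distant probe. For Fr1 minus Fr2, Tlr9 was −0.02 with normexp, Tlr8 was 0.029 where every array had to be above background and also 0.029 without probes over 30% T, where Cd14 was 0.43. For Fr2 minus Fr3, Tlr7 was 0.34 as the mean of its probes and Cd14 −0.75 without probes over 30% T. Normexp, which adds an offset of 50, shrank differences of dim genes. The 75th percentile of detected probes moved the median of all genes for Fr1 minus Fr3 by 0.17 and for Fr1 minus Fr2 by 0.19.

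Leaving out 1 array turned Tlr4 (−0.065 to 0.98), Tlr9 (−0.36 to 0.37) and Cd14 (−0.10 to 0.10) for Fr1 minus Fr3, Tlr3 (−0.95 to 0.54) and Tlr9 (−0.31 to 0.41) for Fr1 minus Fr2, and Tlr8 (−2.84 to 0.29) and Tlr9 (−0.32 to 0.23) for Fr2 minus Fr3. Called members stayed at 0 to 0.

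Counts over all genes, 1 for Fr1 minus Fr3, 0 for Fr1 minus Fr2, 1 for Fr2 minus Fr3 and 1 by the F-test (2084 at an unadjusted p under 0.05), moved more. The gene called was Gm2042, named here after its values were seen. In that order normexp gave 3, 0, 14 and 9, the trended robust variance 8, 1, 11 and 22, and leaving out probes over 30% T 12, 3, 56 and 43, with 1 pathway gene, Tlr12, in each comparison with Fr3. Requiring every array above background gave 9 for Fr2 minus Fr3 and 3 by the F-test. Quantile normalization gave 0 by the F-test, and the 75th percentile of detected probes, no filter and each probe as a feature gave 0 for Fr1 minus Fr3 and 0 by the F-test. Fits of only the fractions compared gave 0, 13 and 0. Leaving out 1 array gave 0 to 1476 for Fr1 minus Fr3, 0 to 13 for Fr1 minus Fr2, 0 to 988 for Fr2 minus Fr3 and 0 to 1153 by the F-test, with 0 to 5, 0 to 0 and 0 to 1 pathway genes. The 1476, 988 and 1153 came without the first Fr3 array; the cause was not tested.

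Fractions share replicate numbers 1 and 2. Deviations of same-numbered arrays correlated with 0.12 (Fr1 with Fr2), 0.43 (Fr1 with Fr3) and 0.05 (Fr2 with Fr3). The main model did not pair the arrays by these numbers. Whether same-numbered arrays of Fr1 and Fr3 came from a shared experiment was not tested. The replicate block gave 0 called genes in Fr1 minus Fr3, 0 in Fr2 minus Fr3 and 0 by the F-test, and changed no member's call.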
